A study of Mus musculus with 7 samples.

Results

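The genes described here encode CTCF, the cohesin ring, the SIN3 scaffolds, the class I histone deacetylases that work with them and the DNA-binding protein YY1. Members were every probe set of the deposited table whose only gene in the array's annotation was Ctcf, Rad21, Smc1a, Smc3, Sin3a, Sin3b, Hdac1, Hdac2, Hdac3 or Yy1, which gave 27 of 45037 probe sets for 10 of 18193 genes. Whole hearts of 7 mdx mice were measured, 1 heart per array, on Affymetrix GeneChip Mouse Genome arrays. The hearts of 4 mice, named mdx HRTΔIKKβ, carried Cre under the Myh6 (alpha myosin heavy chain) promoter together with floxed IKKβ alleles, so that IKKβ was deleted in cardiomyocytes. The other 3 hearts, named mdx IKKβf/f, came from age-matched littermates with floxed IKKβ and no Cre. All mice were 7 months old, all carried the mdx mutation of dystrophin that models Duchenne muscular dystrophy, and the study used males. IKKβ is the kinase that releases NF-κB from its inhibitor, and the comparison asks how gene expression in dystrophic hearts differed when cardiomyocytes lacked it. Fibroblasts, endothelial cells and leukocytes of the same hearts kept IKKβ, and no Cre-positive mouse without floxed alleles and no heart with normal dystrophin was among these arrays. RNA came from the whole organ, so that fewer cells of a type and less RNA per cell cannot be told apart.

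CTCF is a zinc finger protein that binds a long DNA motif and marks insulators and the borders of chromatin loops. The cohesin ring, built from SMC1A, SMC3 and RAD21, extrudes those loops and halts at CTCF, and it also holds sister chromatids together in dividing cells. SIN3A and SIN3B have no DNA-binding domain of their own and act as scaffolds that bring the deacetylases HDAC1 and HDAC2 to promoters, where removal of acetyl groups from histones lowers transcription, while HDAC3 is the deacetylase of the NCoR and SMRT corepressors. YY1 binds promoters and enhancers, can recruit deacetylases or Polycomb proteins, and can also activate genes.

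RefSeq promoter windows of build GRCm38.p6, running from 250 bases before to 50 bases after each annotated start, were given for 7 of the 10 genes in 8 windows. Hdac1, Hdac3 and Rad21 had none. The core YY1 motif, GCCATNTT searched on both strands, was found in 3 of the 8 windows, those of Ctcf, Smc3 and Sin3b, and in 6.05% of all 32851 RefSeq windows of the same length. The κB consensus, the motif of NF-κB, was found in 3 of the 8 windows, both of Sin3a and that of Yy1, and in 8.46% of all windows. No window of these genes held both motifs. Matches of letters in a window are a description only, and no binding was measured here. The windows below show where the YY1 letters stand in the members at the centre of the architectural and scaffold groups, and the κB letters in Sin3a. Each is on the plus strand, with the matched letters in capitals. The Ctcf stretch is the full window, chr8:105636288-105636587, with the match beginning at position 11 counted from 1 at the start site. The Smc3 stretch is chr19:53600346-53600445, with the match beginning at position 1. The Sin3b stretch is chr8:72723220-72723319, and its match, AACATGGC as printed, is the motif on the minus strand, beginning at position 38. The Sin3a stretch is chr9:57076313-57076412, and its κB match begins 18 bases before the start.
Ctcf: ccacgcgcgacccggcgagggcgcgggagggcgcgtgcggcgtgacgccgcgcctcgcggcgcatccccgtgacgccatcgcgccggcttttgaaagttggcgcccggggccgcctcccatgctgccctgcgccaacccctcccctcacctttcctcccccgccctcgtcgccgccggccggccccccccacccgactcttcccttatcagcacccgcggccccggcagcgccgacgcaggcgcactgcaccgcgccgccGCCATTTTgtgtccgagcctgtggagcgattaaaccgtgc
Smc3: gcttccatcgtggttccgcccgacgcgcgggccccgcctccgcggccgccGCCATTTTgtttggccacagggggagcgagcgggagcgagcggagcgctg
Sin3b: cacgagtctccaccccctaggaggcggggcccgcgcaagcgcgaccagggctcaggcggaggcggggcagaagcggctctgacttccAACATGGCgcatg
Sin3a: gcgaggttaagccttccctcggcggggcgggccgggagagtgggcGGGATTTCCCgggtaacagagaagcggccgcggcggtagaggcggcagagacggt

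The arrays were alike in overall distribution, with medians between 6.73 and 6.75 on the log2 scale and correlations between pairs of arrays from 0.9875 to 0.9959 over all probe sets. All 10 cardiomyocyte markers lay in the top 10% of probe sets on every array. The deleted gene, Ikbkb, gave 8.44, 8.86, 8.75 and 8.82 in mdx HRTΔIKKβ hearts, against 8.82, 9.03 and 8.86 in mdx IKKβf/f hearts, at its brightest probe set. The groups overlapped, and the difference of -0.18 ± 0.11 (SE) did not pass (limma adjusted p = 0.801). The other Ikbkb probe sets differed less, by -0.0191, -0.0651, -0.0769 and 0.0223. The sources used here do not give which Ikbkb probes lie in the deleted part of the gene, so these values do not check the labels. A list score is the mean of a list's log2 values, each centred over the 7 hearts. The score of the B and T lymphocyte markers, of which 9 of 10 were on the array, ran from 0.11 to 1.42 in mdx HRTΔIKKβ hearts and from -1.06 to -0.21 in mdx IKKβf/f hearts, without overlap. Single hearts also stood apart in other lists, with skeletal muscle markers at 3.6 in mdx IKKβf/f replicate 1, airway and lung markers at 2.89 in mdx HRTΔIKKβ replicate 2, and atrial markers at 1.13 in mdx HRTΔIKKβ replicate 4 and -1.84 in mdx IKKβf/f replicate 2. Smooth muscle and pericyte markers stood at 0.8 in mdx IKKβf/f replicate 3. The score of the dividing cell markers, of which 9 of 10 were on the array, ran from -0.47 to 0.66 in mdx HRTΔIKKβ hearts and from -0.69 to 1.05 in mdx IKKβf/f hearts, and was highest in mdx IKKβf/f replicate 1. The part of these differences in the values below was not tested.

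Throughout, a value is a log2 RMA level, a difference is the mdx HRTΔIKKβ mean minus the mdx IKKβf/f mean with its SE from limma fitted over all probe sets, and adjusted p is limma's after Benjamini-Hochberg adjustment over all 45037 probe sets. A level of 1 probe set cannot be set against that of another, since probes differ in affinity. Of the 27 probe sets, 14 had a higher mean and 13 a lower mean in mdx HRTΔIKKβ hearts, so that 51.9% were higher, as against 47.6% of all probe sets. No member passed an adjusted p of 0.05, and the smallest adjusted p among them was 0.79. Nor did any other probe set of the array, for which the share called was 0%, while 6.07% of all probe sets had an unadjusted p under 0.05. At that unadjusted level 2 members were higher, or 7.41% against 3.31% of all probe sets, and 1 was lower, or 3.7% against 2.76% of all. The hearts of the groups did not overlap for 2 members that were higher, where 3.01% of all probe sets behaved so, and for 1 that was lower, where the share of all was 2.44% (5.44% in either direction). A single probe set is 3.7% of the 27, so these counts lie close to the shares of the whole array.

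Differences were small. They ran from -0.15 to 0.26, none reached 1.5-fold, which 1.03% of all probe sets did, and the 95% intervals of all 27 lay inside 1.5-fold in either direction. The median size of the difference was 0.064 over the members and 0.067 over all probe sets, and the median SE was 0.069 and 0.080. By the brightest probe set of each gene, 4 genes had a higher mean and 6 a lower mean, with a median difference of -0.0047, while that of all genes was -0.0056. The number of arrays limits the precision of each of these values.

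**Figure D1:**
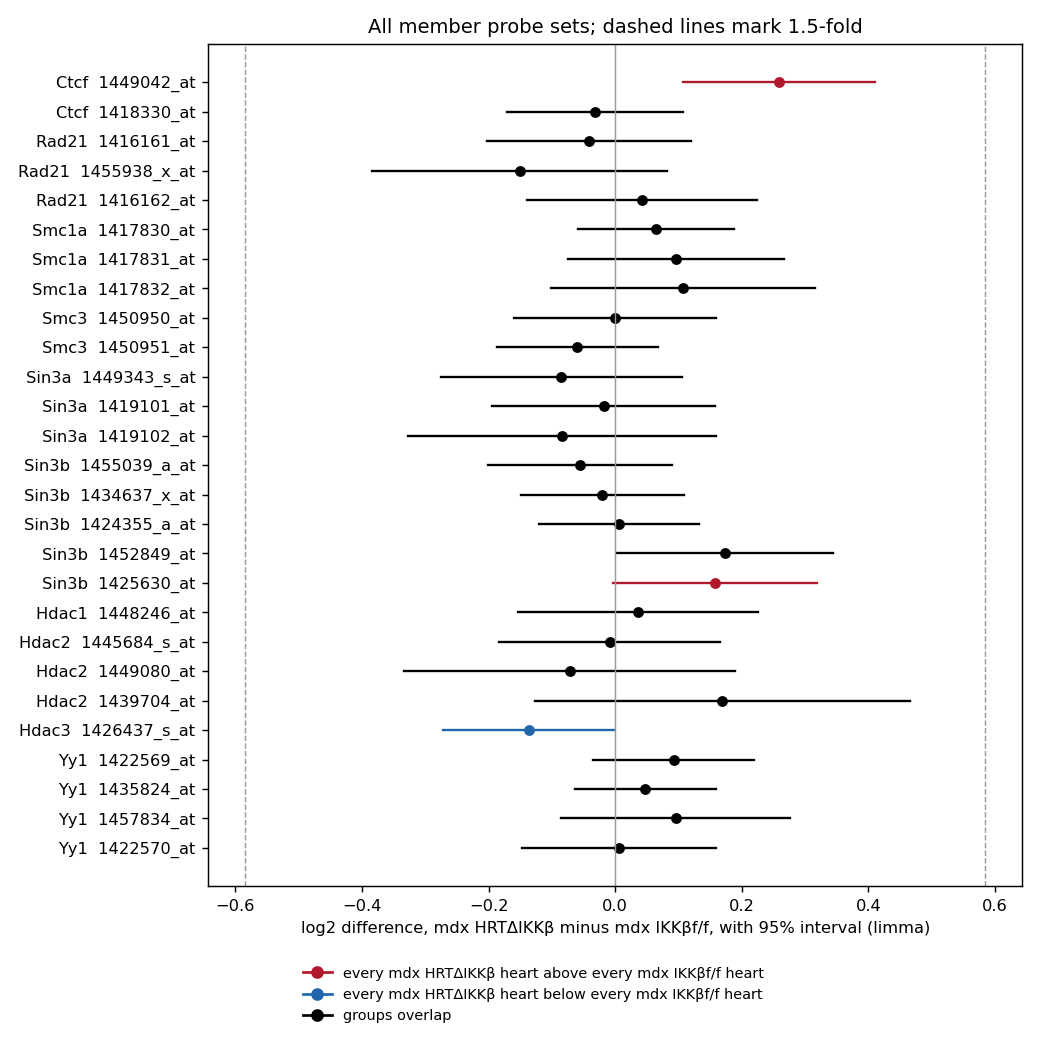
Difference in log2 level, mdx HRTΔIKKβ minus mdx IKKβf/f, for each of the 27 probe sets with its limma 95% interval. Red marks probe sets whose 4 mdx HRTΔIKKβ hearts all lay above the 3 mdx IKKβf/f hearts, blue those whose hearts all lay below, black those that overlap, and the dashed lines mark 1.5-fold, which no interval reaches.

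Ctcf had the most distinct pattern and also the most unequal probe sets. Its brightest probe set, 1449042_at, gave 9.84, 9.75, 9.92 and 9.85 in mdx HRTΔIKKβ hearts, against 9.68, 9.50 and 9.56 in mdx IKKβf/f hearts. All hearts of the deleted group lay above all controls. The means were 9.84 ± 0.07 (SD, n = 4) and 9.58 ± 0.09 (SD, n = 3), a difference of 0.26 ± 0.07 or 1.2-fold, with a 95% interval from 0.11 to 0.41, which did not pass over the whole array (unadjusted p = 0.0046, limma adjusted p = 0.79). Leaving out each heart in turn gave differences between 0.22 and 0.31, with unadjusted limma p of at most 0.0191.

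The second Ctcf probe set, 1418330_at, gave another picture. Its values were 9.28, 9.46, 9.39 and 9.30 in mdx HRTΔIKKβ hearts and 9.38, 9.38 and 9.41 in mdx IKKβf/f hearts. Here the groups overlapped fully, with the controls inside the range of the deleted hearts, and the difference was -0.03 ± 0.06 with an interval from -0.17 to 0.11 (limma adjusted p = 0.921).

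To test the disagreement itself, the second brightest probe set was subtracted from the brightest within each heart, for all 9010 genes with at least 2 probe sets. For Ctcf this within-heart contrast was 0.56, 0.29, 0.53 and 0.55 in mdx HRTΔIKKβ hearts, against 0.30, 0.12 and 0.15 in mdx IKKβf/f hearts. Only replicate 2 of the deleted hearts, at 0.29, fell within the range of the controls. The contrast averaged 0.48 ± 0.13 (SD, n = 4) and 0.19 ± 0.10 (SD, n = 3), and the difference of 0.29 ± 0.09, with an interval from 0.09 to 0.49, did not pass over the 9010 genes (unadjusted p = 0.00993, limma adjusted p = 0.737), where 6.64% of all genes had an unadjusted p under 0.05 and 0.0111% passed after adjustment. The mean of both Ctcf probe sets differed by 0.11 ± 0.05 (unadjusted p = 0.0432, limma adjusted p = 0.787 over genes). By construction this mean lies between the differences of the probe sets, so that it is no separate reading of the gene. The transcripts that each probe set reads were not looked up here.

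**Figure D2:**
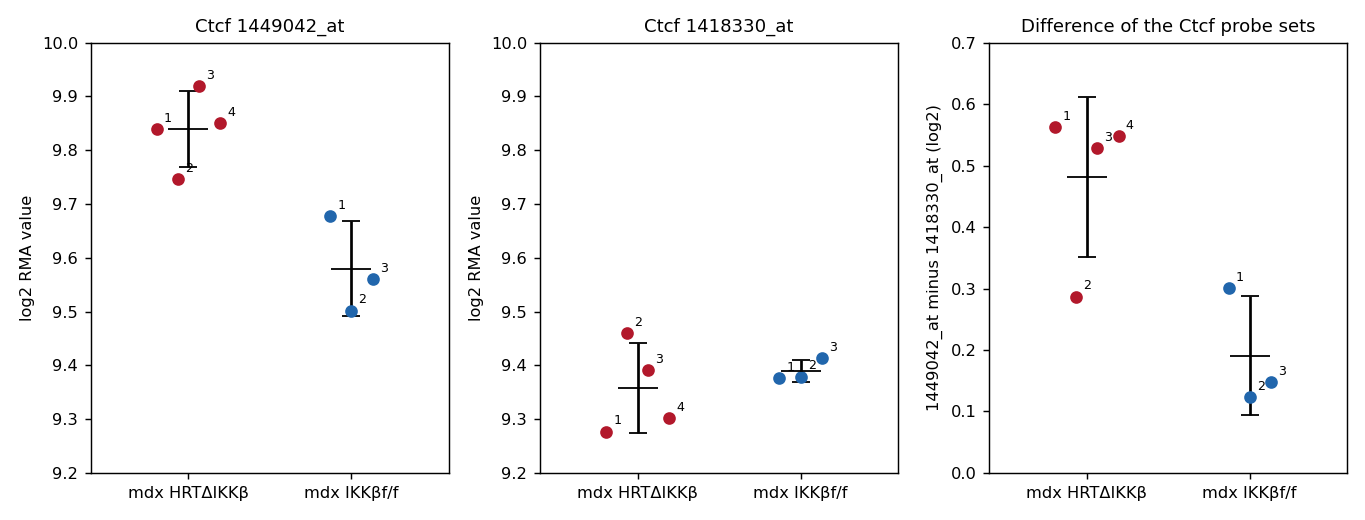
Log2 levels of the Ctcf probe sets and, in the third panel, the within-heart difference of the brightest minus the second, with mdx HRTΔIKKβ hearts in red at the left and mdx IKKβf/f hearts in blue at the right of each panel. Points are hearts numbered by replicate and bars give the mean ± SD. The first probe set separates the groups, the second does not, and in the contrast only mdx HRTΔIKKβ replicate 2, at 0.29, lies among the controls.

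The cohesin ring showed no difference beyond its spread. Rad21, the kleisin that closes the ring, had 3 probe sets with both signs. At the brightest, 1416161_at, it gave 10.30, 10.39, 10.47 and 10.33 in mdx HRTΔIKKβ hearts and 10.53, 10.33 and 10.39 in mdx IKKβf/f hearts. These values overlapped throughout, and the means differed by -0.04 ± 0.07. The probe set 1455938_x_at, whose suffix marks probes that can also match other transcripts, gave 9.18, 9.25, 9.43 and 9.01 in mdx HRTΔIKKβ hearts and 9.46, 9.27 and 9.38 in mdx IKKβf/f hearts. Its difference of -0.15 ± 0.10 (limma adjusted p = 0.809) was the lowest of the 27, and replicate 4 of the deleted hearts was its lowest value. The third, 1416162_at, differed by 0.04 ± 0.08. Control replicate 1, the heart with the highest dividing cell score, 1.05, was the highest of the 7 at 1416161_at and 1455938_x_at. Without it their differences were 0.0155 and -0.107. At 1416162_at the highest was mdx HRTΔIKKβ replicate 4, at 9.32 against 9.30 in control replicate 1. The part of dividing cells in these values was not tested.

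Smc1a, an ATPase arm of the ring, had a higher mean at all 3 probe sets. The brightest, 1417830_at, gave 9.37, 9.44, 9.35 and 9.33 in mdx HRTΔIKKβ hearts, against 9.35, 9.25 and 9.32 in mdx IKKβf/f hearts. Only 1 control, replicate 1, reached into the range of the deleted hearts. The differences were 0.06 ± 0.05, 0.10 ± 0.07 and 0.11 ± 0.09, with unadjusted limma p between 0.227 and 0.268, so that the shared sign rests on differences close to their errors. Probe sets of 1 gene are read from the same RNA on the same arrays and are not independent replicates.

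Smc3, the partner arm, had no clear sign at the brighter of its probe sets. Its brightest probe set, 1450950_at, gave 9.88, 10.12, 10.10 and 9.99 in mdx HRTΔIKKβ hearts and 10.03, 10.04 and 10.02 in mdx IKKβf/f hearts. The controls lay close together and in the middle of the deleted hearts. The difference was -0.000459, with an interval from -0.16 to 0.16, and its sign turned on leaving out some hearts. Its second probe set, 1450951_at, differed by -0.06 ± 0.05.

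The SIN3 scaffolds were read by 8 probe sets. Sin3a had a lower mean at all 3 of its own, by -0.09 ± 0.08, -0.02 ± 0.08 and -0.08 ± 0.10, with unadjusted limma p between 0.328 and 0.815. The brightest, 1449343_s_at, gave 9.01, 9.11, 8.91 and 8.80 in mdx HRTΔIKKβ hearts, against 9.04, 8.98 and 9.11 in mdx IKKβf/f hearts. At 1419102_at the values were 7.60, 7.78, 7.59 and 7.31 in mdx HRTΔIKKβ hearts, against 7.60, 7.67 and 7.68 in mdx IKKβf/f hearts. Replicate 4 of the deleted hearts was the lowest of the 7 at each Sin3a probe set, and without it the differences of 1419101_at and 1419102_at turned to 0.04 and 0.0029. No difference of Sin3a, whose window with the κB letters is printed above, was detected beyond the spread of the hearts.

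Sin3b, the paralogue, split by probe set. The 3 brighter ones, 1455039_a_at, 1434637_x_at and 1424355_a_at, differed by -0.06 ± 0.06, -0.02 ± 0.06 and 0.01 ± 0.05. By their suffixes, 1455039_a_at and 1424355_a_at can read several transcripts of the gene, and 1434637_x_at can match other transcripts too. The remaining pair was higher in the deleted hearts. At 1452849_at Sin3b gave 8.80, 8.83, 8.90 and 8.95 in mdx HRTΔIKKβ hearts, against 8.69, 8.57 and 8.82 in mdx IKKβf/f hearts. Control replicate 3 overlapped the lowest deleted heart, and the difference of 0.17 ± 0.07 did not pass (unadjusted p = 0.0468, limma adjusted p = 0.796). At 1425630_at the values were 7.68, 7.68, 7.64 and 7.80 in mdx HRTΔIKKβ hearts, against 7.42, 7.62 and 7.59 in mdx IKKβf/f hearts. These did not overlap, yet the gap between the nearest hearts was small and the difference of 0.16 ± 0.07 did not pass (unadjusted p = 0.0544, limma adjusted p = 0.796). The largest unadjusted p on leaving out 1 heart was 0.163 for 1452849_at, without mdx IKKβf/f replicate 2, and 0.195 for 1425630_at, without mdx IKKβf/f replicate 1. The contrast between the 2 brightest Sin3b probe sets, which does not include this pair, differed by -0.04 ± 0.05.

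Of the deacetylases, Hdac1 was read by 1 probe set. At 1448246_at it gave 9.23, 9.23, 9.11 and 9.02 in mdx HRTΔIKKβ hearts and 9.25, 9.0 and 9.08 in mdx IKKβf/f hearts. The groups overlapped across nearly their whole range, with a difference of 0.04 ± 0.08 and an interval from -0.15 to 0.22 (limma adjusted p = 0.936).

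Hdac2, its close homologue, had 3 probe sets with both signs. The brightest, 1445684_s_at, gave 10.19, 10.29, 10.27 and 10.06 in mdx HRTΔIKKβ hearts and 10.20, 10.13 and 10.30 in mdx IKKβf/f hearts, and the means differed by -0.01 ± 0.07. At 1449080_at the difference was -0.07 ± 0.11. The third, 1439704_at, was the dimmest of all members and close to the limit of the dimmest 25% of probe sets, 5.27. It gave 5.66, 5.53, 5.81 and 5.84 in mdx HRTΔIKKβ hearts, against 5.70, 5.25 and 5.67 in mdx IKKβf/f hearts. Its difference of 0.17 ± 0.13 came largely with 1 control, replicate 2, and was 0.03 without that heart.

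Hdac3 was the only member with a probe set at which every deleted heart lay below every control. Its single probe set, 1426437_s_at, gave 9.65, 9.68, 9.78 and 9.78 in mdx HRTΔIKKβ hearts, against 9.87, 9.81 and 9.91 in mdx IKKβf/f hearts. The highest deleted hearts and the lowest control were close to each other. The means were 9.72 ± 0.07 (SD, n = 4) and 9.86 ± 0.05 (SD, n = 3), and the difference of -0.14 ± 0.06 did not pass (unadjusted p = 0.048, limma adjusted p = 0.796). Leaving out each heart gave differences from -0.16 to -0.11, and the unadjusted p was 0.143 without mdx IKKβf/f replicate 3. With 1 probe set there is no second reading of Hdac1 or Hdac3 on this array. The suffix of the Hdac3 probe set marks probes that can be shared with other transcripts. With shared probe sets left out, no reading of Hdac3 remained. The brightest probe sets of Sin3a and Hdac2 carry the same suffix.

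Yy1 had a higher mean at all 4 probe sets. The brightest, 1422569_at, gave 10.22, 10.30, 10.32 and 10.28 in mdx HRTΔIKKβ hearts, against 10.16, 10.14 and 10.27 in mdx IKKβf/f hearts. Control replicate 3 lay among the deleted hearts, and the difference was 0.09 ± 0.05 with an interval from -0.03 to 0.22 (unadjusted p = 0.131, limma adjusted p = 0.798). The others, 1435824_at, 1457834_at and 1422570_at, differed by 0.05 ± 0.05, 0.10 ± 0.08 and 0.01 ± 0.07. None was separated from its spread, and the last one turned sign with a second quantile normalization (-0.00118), with array weights (-0.00464) and without some hearts. Among the genes whose windows held the YY1 letters, Ctcf, Smc3 and Sin3b, differences of both signs occurred, and a link to Yy1 was not tested.

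**Figure D3:**
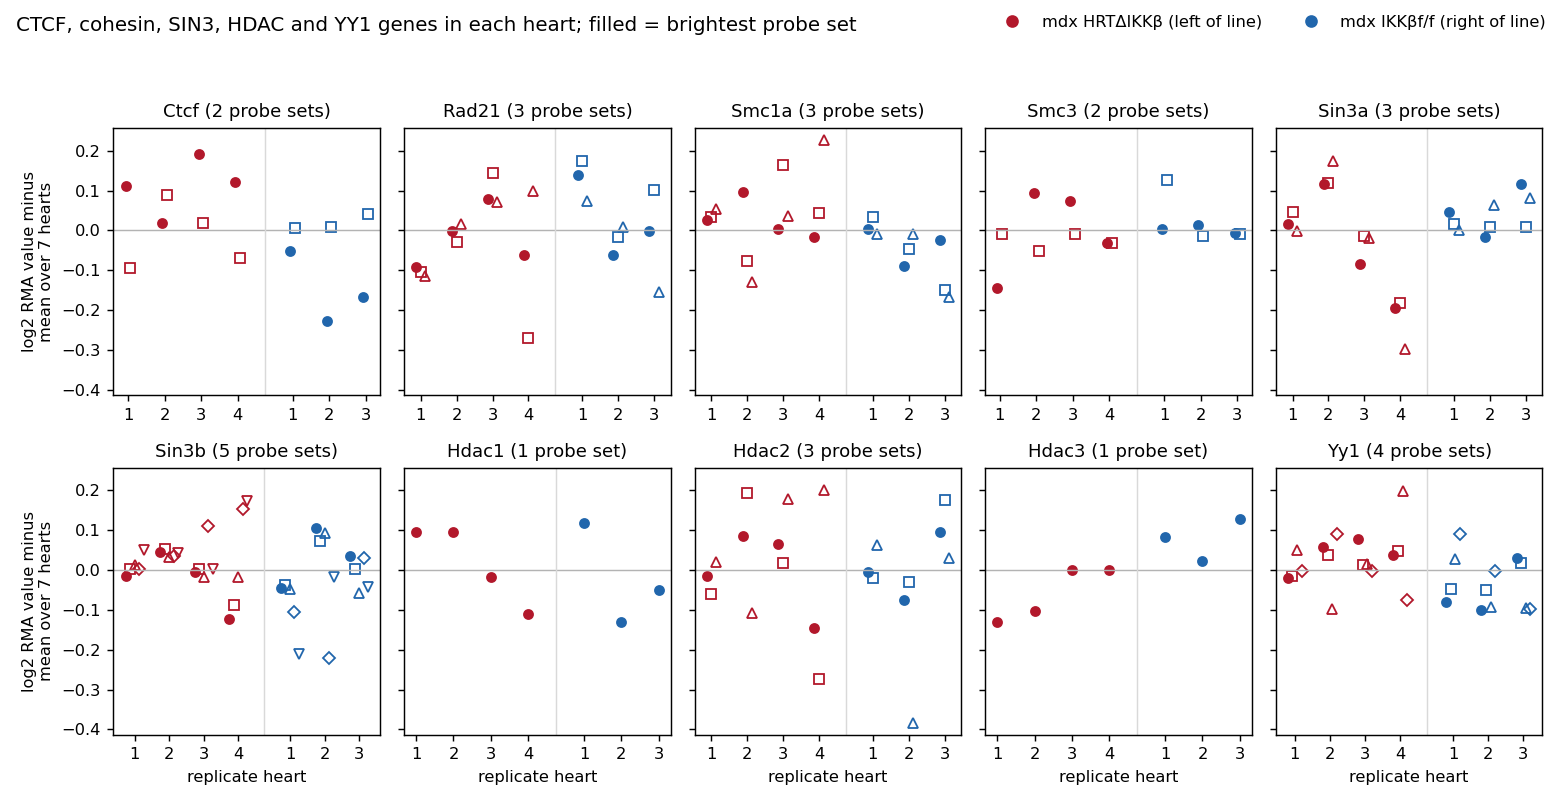
Log2 level of each member probe set minus that probe set's mean over the 7 hearts, by gene, with mdx HRTΔIKKβ hearts in red at the left and mdx IKKβf/f hearts in blue at the right. Filled points are the brightest probe set of a gene and open points the others. The red and blue clouds overlap in all genes except at single probe sets of Ctcf, Sin3b and Hdac3.

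Probe sets of a gene did not always share a sign. Of the 8 genes with at least 2 probe sets, 4 had a single sign at all of them and 4 had both signs. The former were Smc1a and Yy1 with higher and Sin3a and Smc3 with lower means. Smc3 counts there with a difference of only -0.000459 at its brightest probe set. Over all 9010 genes with at least 2 probe sets 50% had a single sign. That share was not matched for the number of probe sets per gene, which was 2 to 5 here. A single sign is rarer with more probe sets, so the shares cannot be compared directly. The spread between the lowest and highest difference of a gene was 0.29 for Ctcf, 0.24 for Hdac2, 0.23 for Sin3b and 0.19 for Rad21, against 0.04 for Smc1a and 0.06 for Smc3. Apart from Ctcf, the within-heart contrasts of the brightest pair differed by -0.07 to 0.11, each with a 95% interval that included no difference. For Rad21 the contrast was 1.12, 1.13, 1.05 and 1.32 in mdx HRTΔIKKβ hearts and 1.07, 1.06 and 1.0 in mdx IKKβf/f hearts, and the means differed by 0.11 ± 0.07.

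Single hearts stood at the extremes of several of these genes. Replicate 4 of the mdx HRTΔIKKβ hearts was the lowest of the 7 at 8 of the 27 probe sets, or 29.6% against 10.8% of all probe sets, and the highest at 7, or 25.9% against 11.4%. It was lowest at the 2 brightest probe sets of Sin3b and of Hdac2, and highest at 1452849_at and 1425630_at of Sin3b and 1439704_at of Hdac2. This heart also had the highest atrial score, 1.13, and the lowest cardiomyocyte score, -0.09. Replicate 2 of the mdx IKKβf/f hearts was the lowest at 7, or 25.9% against 13.5%. Replicate 1 of the mdx HRTΔIKKβ hearts was the highest at 0 of the 27, where it was so at 16.9% of all probe sets.

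The partners of these proteins were read from 10 lists of complex subunits and related enzymes, by the brightest probe set of each gene. Outside the members, 128 of 140 listed genes were on the array, with 59 higher and 69 lower means in mdx HRTΔIKKβ hearts and a median difference of -0.01. None passed after adjustment. Counts given per list below include the members. At an unadjusted p of 0.05, 2 were higher, or 1.56% against 3.25% of all genes, and 5 were lower, or 3.91% against 2.95%. These shares are again near those of all genes.

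Within the loop machinery, the list of the cohesin ring, its loaders and regulators had 18 genes on the array including members, with 10 higher and 8 lower means, a median difference of 0.01 and none at an unadjusted p of 0.05. Hdac8, the deacetylase that recycles SMC3, gave 5.96, 5.96, 6.07 and 6.21 in mdx HRTΔIKKβ hearts, against 5.91, 5.65 and 5.96 in mdx IKKβf/f hearts (difference 0.21 ± 0.10, limma adjusted p = 0.796). Of 10 genes in the list of CTCF and its partners, 5 were higher and 5 lower, and Ctcf itself was the only one at an unadjusted p of 0.05. Top2b, the topoisomerase found at loop anchors, differed by -0.05 ± 0.07, but its other probe sets had higher means, by 0.0352 and 0.186. The list of other SMC complexes, condensin and SMC5/6, had 5 higher and 10 lower means of 15, with Nsmce1, a subunit of SMC5/6, at -0.27 ± 0.14 (limma adjusted p = 0.796). The other Nsmce1 probe sets differed by -0.0282 and -0.343.

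Within the corepressors, the SIN3 list had 10 higher and 18 lower means of 28 genes, with a median of -0.02 and 1 gene, Tet1, at an unadjusted p of 0.05. Tet1, which oxidises methylcytosine and binds SIN3A, gave 7.39, 7.11, 7.38 and 7.35 in mdx HRTΔIKKβ hearts, against 7.53, 7.51 and 7.55 in mdx IKKβf/f hearts. All deleted hearts lay below the controls, with a difference of -0.23 ± 0.08 (limma adjusted p = 0.796), and its 3 other probe sets differed by -0.201, 0.0224 and -0.382. In the NuRD list 8 genes were higher and 6 lower. Mbd3, the methyl-binding-domain subunit of NuRD, gave 9.19, 9.31, 9.14 and 9.13 in mdx HRTΔIKKβ hearts, against 8.96, 8.82 and 9.15 in mdx IKKβf/f hearts (difference 0.21 ± 0.09, limma adjusted p = 0.796). Control replicate 3 overlapped the deleted hearts.

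In the CoREST list, 6 of 12 genes were higher and 6 lower, and 2 lower ones had an unadjusted p under 0.05. Rcor3, a scaffold of this complex, had the largest difference of the named subunits when each was read by its brightest probe set. It gave 9.44, 9.56, 9.47 and 9.13 in mdx HRTΔIKKβ hearts, against 9.73, 9.72 and 9.74 in mdx IKKβf/f hearts, and all deleted hearts lay below the controls (difference -0.33 ± 0.10, limma adjusted p = 0.796). Its 5 other probe sets also had lower means, by differences from -0.174 to -0.0467, so that the sign was shared by all 6. Zmym3, a zinc finger partner of the complex, differed by -0.14 ± 0.06, and its other probe sets by -0.133, -0.0648 and -0.0447. In the list of NCoR and SMRT, the home of Hdac3, 5 genes were on the array and 2 were higher and 3 lower. Hdac3 was the only one at an unadjusted p of 0.05, while Tbl1x, a subunit that bridges the corepressor to its targets, differed by 0.17 ± 0.08. The other Tbl1x probe sets differed by 0.138 and 0.345.

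Among the remaining enzymes, 6 of 13 other deacetylases were higher and 7 lower. Sirt1, an NAD-dependent deacetylase, gave 8.40, 8.52, 8.60 and 8.60 in mdx HRTΔIKKβ hearts, against 8.61, 8.82 and 8.75 in mdx IKKβf/f hearts (difference -0.20 ± 0.08, limma adjusted p = 0.796). All deleted hearts were below the controls, though the nearest were almost level. Of the histone acetyltransferases and bromodomain readers, 7 of 12 were higher and 5 lower. Kat6a, an acetyltransferase of the MYST family, gave 9.51, 9.58, 9.49 and 9.57 in mdx HRTΔIKKβ hearts, against 9.43, 9.22 and 9.32 in mdx IKKβf/f hearts (difference 0.22 ± 0.06, limma adjusted p = 0.796), but its other probe sets differed by -0.0574 and 0.056. In the list of YY1 and Polycomb, 9 of 19 genes were higher and 10 lower. Jarid2, a partner of the Polycomb methyltransferase, gave 9.94, 9.77, 9.63 and 9.70 in mdx HRTΔIKKβ hearts, against 10.07, 9.97 and 9.99 in mdx IKKβf/f hearts (difference -0.25 ± 0.08, limma adjusted p = 0.796), and its other probe sets had lower means too, by -0.187 and -0.115.

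**Figure D4:**
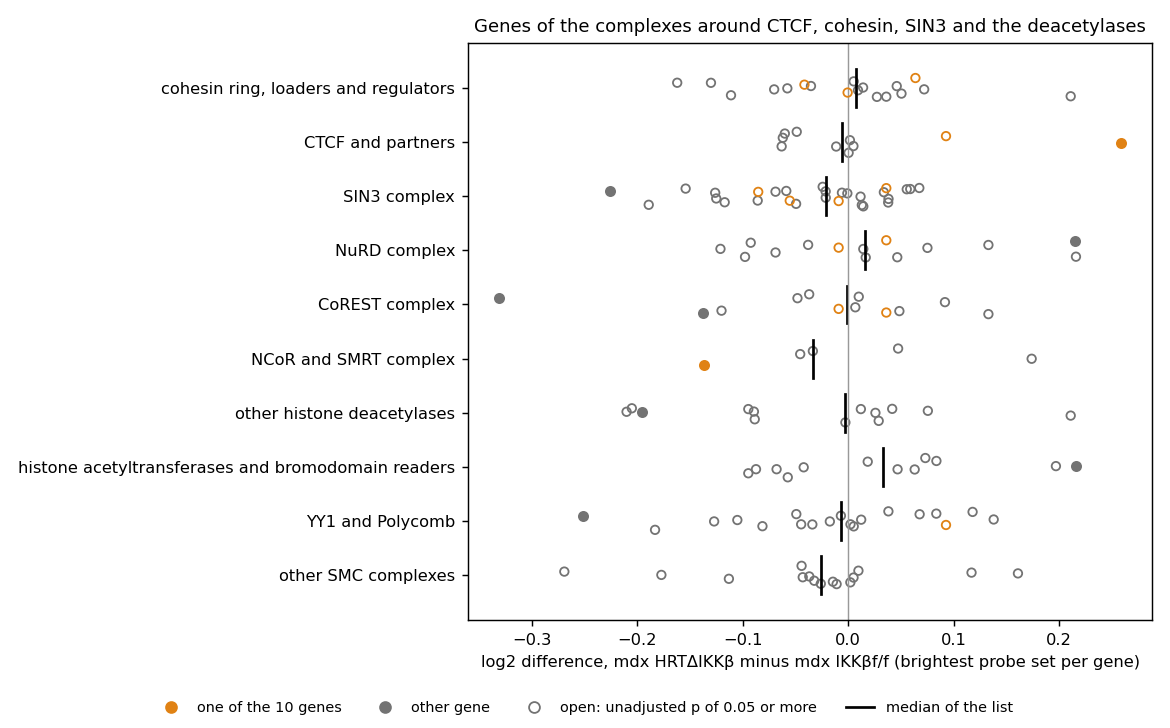
Difference in log2 level, mdx HRTΔIKKβ minus mdx IKKβf/f, of each gene in the 10 lists by its brightest probe set. Orange points are the members, open points had an unadjusted p of at least 0.05 and the black tick is the median of a list, which lies between -0.0334 and 0.0328 over the 10 lists.

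Finally, the brightest Ctcf probe set was set against all genes whose SD over the 7 hearts was at least as large, 4834 in all, by the mean absolute difference of centred log2 levels. The nearest were Cpn2 (0.0417), Glrx2 (0.0455), Npy (0.0479), Gja5 (0.0536) and Hsp90b1 (0.0596), where 0 would be an identical pattern over the 7 hearts. Npy, which encodes neuropeptide Y, gave 7.03, 6.98, 7.18 and 6.98 in mdx HRTΔIKKβ hearts and 6.95, 6.70 and 6.66 in mdx IKKβf/f hearts. Hsp90b1, a chaperone of the endoplasmic reticulum, gave 12.25, 12.09, 12.44 and 12.26 in mdx HRTΔIKKβ hearts and 11.95, 11.87 and 11.87 in mdx IKKβf/f hearts. Both shared with Ctcf a higher level in all deleted hearts. The genes were picked for nearness to the Ctcf pattern, so this likeness is no separate support. For Glrx2 and Gja5 the groups overlapped. Cpn2 and Gja5 were dim, with means under 5.27 in mdx IKKβf/f hearts.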

How the data were processed

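Total RNA from whole hearts was extracted with Trizol, purified on a column, biotin-labelled and hybridised to Affymetrix Mouse Genome arrays. The deposited log2 values were made by the authors with RMA, which subtracts background, gives all arrays 1 distribution by quantile normalization and summarises the probes of each set. Partek was used, and Affymetrix Expression Console independently. Versions, and which program made the table, are not given in the sources used here. Differences of dim probe sets are compressed by RMA, and a shift of all genes at once would not be seen after quantile normalization. That the scale is log2 was read from the values, which ran from 3.124 to 15.09.

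Probe sets were named through the array's annotation, which can be old. Of 45037, 34945 had 1 gene symbol, 932 several and 9160 none, and only the first kind was named. Groups were compared as mdx HRTΔIKKβ (n = 4) minus mdx IKKβf/f (n = 3) with limma 3.58.1 in R 4.3.3 (lmFit and eBayes, two-sided, no filter on dim probe sets), with Benjamini-Hochberg adjustment over all probe sets, tested first on simulated data. The brightest probe set of a gene is the one with the highest mean over the 7 hearts. The study states biological replicates, and no 2 arrays held the same values. The members and lists were chosen with earlier results of these data known. Named genes were all members, Ikbkb, up to 3 genes per list with the smallest unadjusted p, and the 5 genes nearest to Ctcf in pattern. Osbpl3 and Igk were named after their values were seen. Subunit and marker lists came from textbook knowledge. Alternatives were array scaling, dim or shared probe sets left out, a variance trend, array weights, a replicate block, the methods' t-test, other probe set rules and each heart left out. Probe sets of deleted hearts were also searched for single outlying hearts by Dixon's criterion. Figures were drawn with matplotlib 3.10.9.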

Additional observations from a re-analysis of the deposited data

Results flagged for a closer look

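Dixon's criterion, applied to the 4 mdx HRTΔIKKβ hearts at 66 probe sets (all members, all of Ikbkb and the named genes), found 5 in which 1 heart lay apart, where chance gives about 1 group in 20. None was a member. The 3 mdx IKKβf/f hearts are too few for it. At Ikbkb 1432275_at replicate 2 was lowest at 7.928 with the next heart at 8.178, a gap of 0.956 of the range. At Ikbkb 1426333_a_at replicate 1 was lowest at 7.041 with the next at 7.266, a gap of 0.899. At Tet1 1429448_s_at replicate 2 was lowest at 7.11 with the next at 7.348, a gap of 0.855. At Gps2 1417796_at replicate 2 was highest at 8.28 with the next at 8.2, a gap of 0.858. At Glrx2 1422998_a_at replicate 2 was lowest at 10.58 with the next at 10.79, a gap of 0.85.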

How the results depend on the processing

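No member passed an adjusted p of 0.05 under any alternative run, and Ctcf 1449042_at kept an unadjusted p under 0.05 and a higher mean in all of them, with differences from 0.22 to 0.308. Over all probe sets the count called was 0 to 1 on leaving out single hearts, the 1 being Igk 1425738_at (2.35, limma adjusted p = 0.0463) without mdx HRTΔIKKβ replicate 1. The count of 3 members at an unadjusted p of 0.05 was 1 (Ctcf) without the dimmest 25% of probe sets, 1 with a variance trend, 1 with the replicate block and 1 to 3 on leaving out single hearts, with 1 when mdx HRTΔIKKβ replicate 2 was left out and 1 when replicate 1 of the mdx IKKβf/f hearts was. Without mdx HRTΔIKKβ replicate 3 the 3 included Rad21 1455938_x_at (-0.22). With array weights the count rose to 4, as Sin3b 1425630_at joined. It was 2 with each array centred on its median, a second quantile normalization, shared probe sets left out or the methods' t-test. The median difference of the member genes, -0.00472, was 0.0657 with the most variable probe set of each gene and -0.0351 to 0.0241 on leaving out single hearts. The 1 gene called for the within-heart contrast, Osbpl3 (0.865 ± 0.0732, limma adjusted p = 0.0181), gave a count of 0 with the block and 0 to 1 on leaving out single hearts, with 0 for each heart except mdx HRTΔIKKβ replicate 1. The cause of these changes was not tested.

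The labels do not pair the hearts, and deviations of same-numbered hearts correlated at -0.0751, -0.377 and -0.0362, so the block was not used. It takes no difference from mdx HRTΔIKKβ replicate 4, which has no partner. With the replicate block signs turned for Smc3 1450950_at (0.0103), Sin3a 1419101_at (0.04) and 1419102_at (0.00291), Sin3b 1434637_x_at (0.00526), and Hdac2 1445684_s_at (0.0379) and 1449080_at (0.00937). With array weights they turned for Smc3 1450950_at (0.00214), Hdac1 (-0.00768) and Yy1 1422570_at (-0.00464), and with a second quantile normalization for Sin3b 1424355_a_at (-0.0187) and Yy1 1422570_at (-0.00118). Leaving out single hearts turned the sign of probe sets whose difference was small, over these ranges: Rad21 1416161_at from -0.0841 to 0.0155 and 1416162_at from -0.0232 to 0.0914, Smc3 1450950_at from -0.0326 to 0.047, Sin3a 1419101_at from -0.061 to 0.04 and 1419102_at from -0.154 to 0.00291, Sin3b 1434637_x_at from -0.045 to 0.00996 and 1424355_a_at from -0.0191 to 0.0518, Hdac1 from -0.0185 to 0.105, Hdac2 1445684_s_at from -0.0514 to 0.0379 and 1449080_at from -0.147 to 0.00937, Yy1 1422570_at from -0.0406 to 0.0529, and the Smc1a contrast from -0.0945 to 0.0212. No other named difference of a member turned its sign.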
